A study of Mus musculus with 6 samples.

Results

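The heat shock chaperones of the cytosol, nucleus and mitochondria, with their cochaperones, were followed in *Uba6*-null and control 4T1 cells. Members were the protein-coding genes of the deposited expression table whose symbols start with Hspa, Hspb, Hspd, Hspe, Hsph or Hsp90a, or with Dnaja, Dnajb, Dnajc or Cct and a digit. Well-known endoplasmic reticulum genes (Hspa5, Hspa13, Hsp90b1, Dnajb9, Dnajb11 and Dnajc3) were left out. This gave 66 members of 19255 genes. The prefixes are wider than the name of the group, since they also took in 8 other J-proteins of the endoplasmic reticulum or its membrane and Hspbp1 and Hspbap1, which are not chaperones themselves.

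4T1 is a mammary carcinoma line from BALB/c mice. Cas9-expressing 4T1 cells received a guide RNA against *Uba6* (sgUba6) or a control guide (sgCtrl) by lentivirus, followed by puromycin selection, and both were grown in RPMI medium with serum. UBA6 is an E1 enzyme that activates ubiquitin and the ubiquitin-like protein FAT10. RNA-seq gave 3 libraries of sgUba6 cells and 3 of sgCtrl cells. The sources used here do not say whether either line was a clone. The study states in general terms that its results were repeated biologically, but not whether these RNA-seq libraries came from separate cultures, so p-values measure the spread between these libraries, which may be technical.

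Heat shock proteins bind unfolded or partly folded proteins. HSP70 proteins hold and release clients in a cycle of ATP hydrolysis that J-proteins (Dnaj genes) start and HSP110 proteins, acting as nucleotide exchange factors, complete. HSP90 dimers finish the folding of kinases and steroid receptors, small HSPs hold unfolded proteins without ATP, and the ring-shaped TRiC complex folds actin and tubulin. In mitochondria, mortalin (Hspa9) pulls in and folds imported proteins, and the HSP60 (Hspd1) and HSP10 (Hspe1) chaperonin folds them in a closed cage. In the cytosol many of these genes are switched on by heat shock factor 1 (HSF1), which binds repeats of GAA and its complement TTC, called heat shock elements.

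Promoter sequences from RefSeq (GRCm38.p6) were matched by symbol for 53 of the 66 members. Heat shock elements were searched on both strands, from 250 bases before to 50 bases after each transcription start. An element was read as 3 alternating units, GAANNTTCNNGAA or TTCNNGAANNTTC. Of the 53 members, 4 (7.55%) held one in any listed promoter, against 0.662% of the 27025 genes of the table. These were Hspd1, Hspe1, Hsph1 and Dnajb6. Hspd1 and Hspe1 share 1 divergent promoter on chromosome 1, and the same overlapping matches were counted for both. The RefSeq starts compared were 216 bases apart, but in the gene coordinates used here the exons of Hspd1 and Hspe1 overlap by 112 bases. With only 2 units (GAANNTTC or TTCNNGAA), 16 of the 53 members matched, or 30.2%, against 16.97% of all genes. A match is a description of letters and not evidence of binding.

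The promoters below run from 150 bases before the start to 30 bases from it, 5′ to 3′ on the gene's strand. The first 3 belong to members with a 3-unit element, which is in capitals. The Hspe1 sequence is the part shared with Hspd1, and its capitals span overlapping 3-unit matches. The last 2 belong to the small HSP genes with the largest differences between sgUba6 and sgCtrl cells. They hold no 3-unit element, and their 2-unit matches are in capitals. The matches of Hsph1 and Hspb8 lie after the start.
Hspe1 (chr1:55087998-55088177, plus strand): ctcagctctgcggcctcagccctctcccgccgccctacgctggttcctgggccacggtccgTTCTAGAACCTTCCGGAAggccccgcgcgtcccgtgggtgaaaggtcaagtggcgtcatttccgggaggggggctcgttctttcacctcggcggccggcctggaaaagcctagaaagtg
Hsph1 (chr5:149636286-149636465, minus strand): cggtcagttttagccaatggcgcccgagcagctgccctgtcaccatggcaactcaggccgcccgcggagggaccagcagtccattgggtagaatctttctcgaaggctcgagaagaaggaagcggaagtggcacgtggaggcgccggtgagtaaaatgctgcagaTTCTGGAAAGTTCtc
Dnajb6 (chr5:29735748-29735927, plus strand): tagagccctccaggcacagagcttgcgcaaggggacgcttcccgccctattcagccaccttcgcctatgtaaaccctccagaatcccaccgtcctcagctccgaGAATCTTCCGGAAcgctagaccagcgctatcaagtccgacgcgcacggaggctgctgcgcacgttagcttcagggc
Hspb1 (chr5:135887769-135887948, plus strand): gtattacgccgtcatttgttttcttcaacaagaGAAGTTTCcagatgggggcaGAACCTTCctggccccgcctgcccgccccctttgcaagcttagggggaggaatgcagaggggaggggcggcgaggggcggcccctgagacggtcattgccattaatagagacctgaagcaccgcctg
Hspb8 (chr5:116422835-116423014, minus strand): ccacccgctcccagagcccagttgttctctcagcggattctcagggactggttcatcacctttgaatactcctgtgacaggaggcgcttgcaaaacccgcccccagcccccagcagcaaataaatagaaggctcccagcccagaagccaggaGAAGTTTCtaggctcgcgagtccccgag

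Values are FPKM, fragments scaled to transcript length and to the size of the library. A gene was tested when at least 3 of the 6 libraries reached 0.5 FPKM, and 59 members passed this filter. Hspb1 and Dnajb5 passed it through the sgUba6 libraries alone, so their difference is partly built into the filter. Fold changes are sgUba6 over sgCtrl on the log2(FPKM + 0.5) scale, which understates the change of low genes. A call is a Benjamini-Hochberg adjusted p below 0.05 over all 12190 genes tested. By limma, 16 of the 59 members (27.1%) were higher in sgUba6 cells and 24 (40.7%) were lower, and 19 did not pass. Over all genes tested, 24.7% were higher and 22.7% were lower. The members' median log2 fold change was -0.10, against 0.01 over all genes. The libraries of the groups did not overlap for 43 of the 59 members (72.9%), against 57.6% of all genes tested. Of the 40 members called, 30 kept their call under each of the 14 alternative settings that gave them a value. These 30 include Hspb1 and Dnajb5, which gave no value when any sgUba6 library was left out, so those settings could not try their calls. The families went different ways, so each is described by itself.

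**Figure D1:**
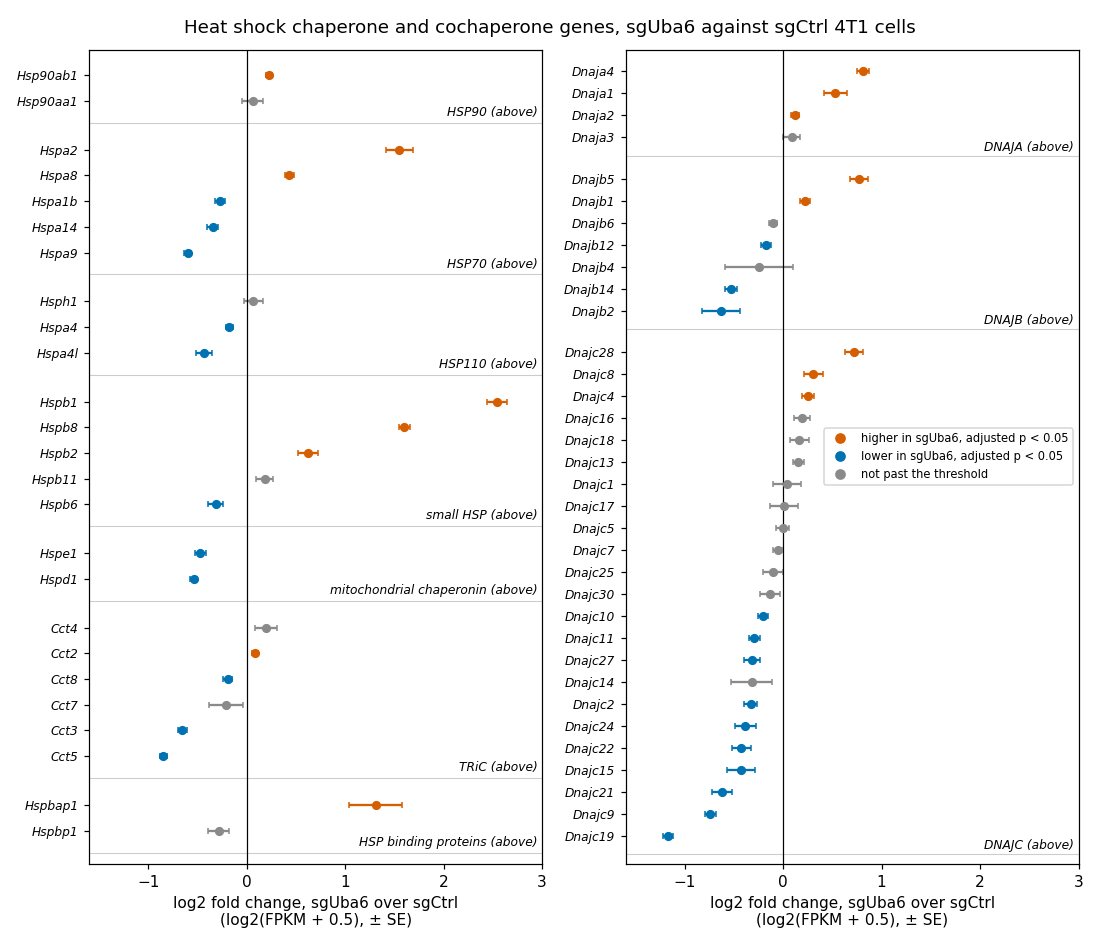
Log2 fold change, sgUba6 over sgCtrl, of the 59 members tested (x axis, on the log2(FPKM + 0.5) scale; points are limma estimates, bars are ± SE, 3 libraries per group). Genes are grouped by family, and colour marks those higher (16), lower (24) or not past the adjusted p threshold of 0.05 (19), with Hspb1 at 2.54 and Dnajc19 at -1.17 as the extremes.

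Facts of the libraries bear on all results. Summed FPKM ran between 352535 and 355425 in sgUba6 libraries and between 358916 and 362762 in sgCtrl libraries, and the read depth is unknown. The members together held 6514 to 6570 FPKM in sgUba6 cells and 6467 to 6734 FPKM in sgCtrl cells. *Uba6* itself had 10.9, 12.1 and 12.03 FPKM in sgUba6 libraries, against 16.4, 16.4 and 17.02 FPKM in sgCtrl libraries (log2 fold change -0.49 ± 0.06 SE, adjusted p = 0.0006), so its transcript was lowered but present. An edited gene can still be transcribed, and the cut site was not read here. The study itself checked the knockout at the protein level, by western blot of UBA6 in its sgCtrl and sgUba6 4T1 cells. The 7 epithelial markers summed to 2123 to 2152 FPKM in sgUba6 libraries, against 2019 to 2062 FPKM in sgCtrl libraries. Within that sum Epcam (230 FPKM in sgUba6 cells and 124 FPKM in sgCtrl cells, adjusted p = 0.000488) and Cldn4 (249 FPKM in sgUba6 cells and 148 FPKM in sgCtrl cells, adjusted p = 2.1e-05) were higher, Krt8 was lower (adjusted p = 0.00308) and 4 did not pass. The leukocyte and endothelial markers in the table summed to at most 0.214 FPKM in any library, with 2 of 5 and 1 of 4 listed there. Of 6 fibroblast markers, 4 were in the table; their sum was 5.398 to 6.696 FPKM in sgUba6 libraries, against 2.96 to 3.19 FPKM in sgCtrl libraries, most of it Pdgfra. Both markers tested were higher, Pdgfra (5.28 FPKM in sgUba6 cells and 2.69 FPKM in sgCtrl cells, adjusted p = 0.000441) and Col1a1 (0.854 FPKM in sgUba6 cells and 0.264 FPKM in sgCtrl cells, adjusted p = 0.00221), and Dcn and Col1a2 were near 0. Col1a1 passed the filter through the sgUba6 libraries alone, so its call is partly set by the filter. Of 7 immediate early and stress genes 3 (Fos, Egr1 and Jun, 42.9%) were higher, against 24.7% of all genes tested, and Atf3 was lower. Of 7 proliferation genes 4 (57.1%) were lower, against 22.7% of all genes tested. The part of these marker, stress and proliferation genes in the chaperone results was not tested.

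Hspb1 and Hspb8, both small HSP genes, showed the largest rises among the members on the log2(FPKM + 0.5) scale. Small HSPs form oligomers that keep unfolding proteins soluble. Of the 5 small HSP genes, all tested, 3 (60%) were higher in sgUba6 cells and 1 (20%) was lower. The shares over all genes tested were 24.7% higher and 22.7% lower. Hspb8 (chr5:116408491-116422864), whose product works with BAG3 to send misfolded proteins to autophagy, had 46.0, 42.7 and 41.7 FPKM in sgUba6 libraries, against 13.9, 14.6 and 13.4 FPKM in sgCtrl libraries. Its lowest sgUba6 library was far above its highest sgCtrl library, and its mean FPKM was 3.11-fold higher (log2 fold change 1.60 ± 0.06 SE, adjusted p = 6.65e-06). Hspb1 (chr5:135887919-135889563), which encodes HSP25, the mouse form of human HSP27, had 3.37, 3.32 and 3.92 FPKM in sgUba6 libraries, against 0.181, 0.180 and 0.219 FPKM in sgCtrl libraries. It was barely expressed in sgCtrl cells and low in sgUba6 cells, so the 18.3-fold ratio of the means rests on small values. On the log2(FPKM + 0.5) scale the difference was 2.54 ± 0.10 (SE). Since Hspb1 passed the filter through the sgUba6 libraries alone, its call and its place in the count of this family are partly set by the filter. With all genes fitted and no filter, limma gave an adjusted p of 2.465e-05, and with 0.1 FPKM added in place of 0.5 the difference was 3.63.

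Hspb2, first described as a partner of the myotonic dystrophy kinase in muscle, had 8.47, 8.82 and 9.13 FPKM in sgUba6 libraries, against 5.93, 6.05 and 4.74 FPKM in sgCtrl libraries (log2 fold change 0.62 ± 0.10 SE, adjusted p = 0.00207). The groups did not overlap. Hspb2 shares 252 of its 834 exon bases with Cryab, a small HSP gene on the opposite strand that was also higher (log2 fold change 0.29, adjusted p = 0.00707), and reads from the shared part cannot be told apart without strand. Hspb6 went the other way, with 6.06, 6.14 and 6.32 FPKM in sgUba6 libraries, against 7.62, 8.55 and 7.26 FPKM in sgCtrl libraries (log2 fold change -0.31, adjusted p = 0.012). Hspb11, which despite its symbol encodes IFT25, a part of the transport machinery of cilia, averaged 21.2 FPKM in sgUba6 cells and 18.6 FPKM in sgCtrl cells, and its groups overlapped (log2 fold change 0.18, adjusted p = 0.125). Without sgUba6 replicate 2 it passed (adjusted p = 0.0181 by limma).

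The 2 cytosolic HSP90 genes were the most abundant part of the set. Hsp90ab1, the constitutive HSP90 beta (chr17:45567775-45573271), had 2499, 2484 and 2458 FPKM in sgUba6 libraries, against 2091, 2079 and 2189 FPKM in sgCtrl libraries. Every sgUba6 library was above every sgCtrl library (log2 fold change 0.23 ± 0.03 SE, adjusted p = 0.00124), but under quantile normalization the value was 0.07 with adjusted p = 0.134 by limma. Hsp90ab1 made up 37.7% to 38.1% of the members' summed FPKM in sgUba6 libraries and 32.0% to 32.5% in sgCtrl libraries. Hsp90aa1, the heat-inducible HSP90 alpha, had 296, 361 and 367 FPKM in sgUba6 libraries, against 319, 294 and 367 FPKM in sgCtrl libraries. Its groups overlapped (log2 fold change 0.06 ± 0.11 SE, adjusted p = 0.665).

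**Figure D2:**
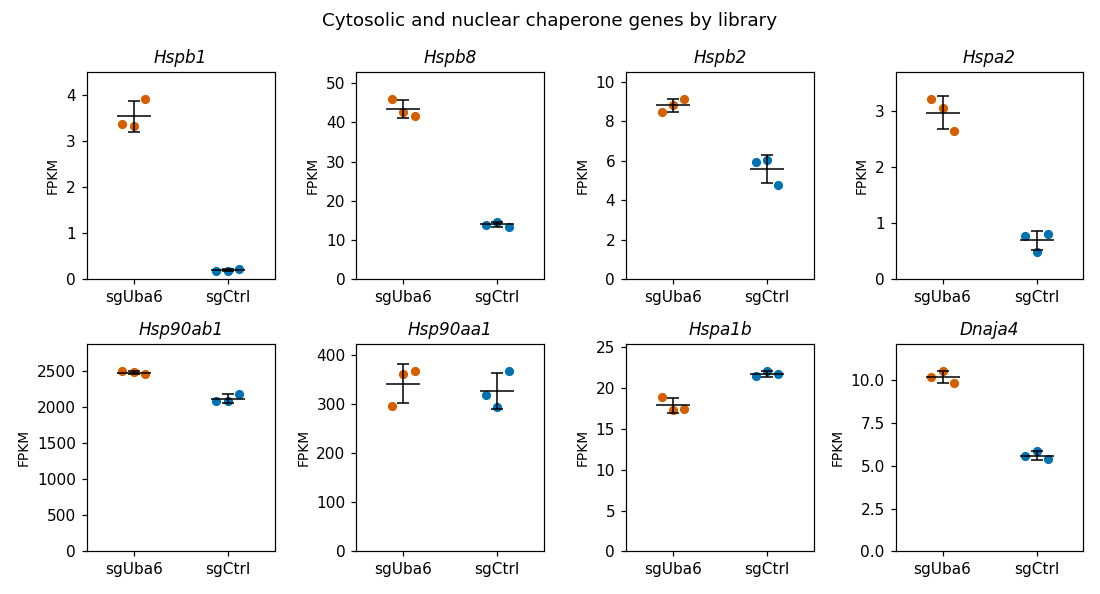
FPKM (y axis, linear, from 0) of 8 members of the cytosol and nucleus in sgUba6 (left) and sgCtrl (right) libraries, 3 each; points are libraries, the horizontal line is the mean and the bars are ± SD. Hspb1, Hspb8, Hspb2, Hspa2, Hsp90ab1 and Dnaja4 are higher in sgUba6 cells with no overlap, Hspa1b is lower with no overlap, and Hsp90aa1 overlaps.

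Among the 8 HSP70 genes, 5 were tested, and sgUba6 cells had more of 2 (40%) and less of 3 (60%). The shares over all genes tested were 24.7% higher and 22.7% lower. The constitutive Hsc70 gene Hspa8 (chr9:40800984-40810087), which also drives clathrin uncoating and chaperone-mediated autophagy, had 779, 729 and 777 FPKM in sgUba6 libraries, against 558, 596 and 539 FPKM in sgCtrl libraries. The groups were well apart (log2 fold change 0.43 ± 0.05 SE, adjusted p = 0.000432). Hspa2, known for its role in meiosis in the testis, had 3.21, 3.05 and 2.65 FPKM in sgUba6 libraries, against 0.773, 0.491 and 0.807 FPKM in sgCtrl libraries. The means differed 4.30-fold at a low level (log2 fold change 1.55 ± 0.14 SE, adjusted p = 0.000173).

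The stress-inducible HSP70 did not rise with them. Hspa1b had 18.9, 17.3 and 17.4 FPKM in sgUba6 libraries, against 21.4, 22.1 and 21.7 FPKM in sgCtrl libraries, so all sgUba6 libraries were below (log2 fold change -0.27 ± 0.05 SE, adjusted p = 0.00442). Its copy Hspa1a shares 2200 bases of transcript at 99.1% identity, and their 300-base promoters differ at 4 positions. Hspa1a was listed at no more than 0.029 FPKM in any library, so nearly all reads of the pair stand under Hspa1b. The sum of the 2 genes was 17.9 ± 0.92 FPKM in sgUba6 cells and 21.7 ± 0.33 FPKM in sgCtrl cells (SD, n = 3 each, exact two-sided permutation p = 0.1, the smallest that 3 against 3 allows). Hspa14, a ribosome-associated HSP70, averaged 36.8 FPKM in sgUba6 cells and 46.9 FPKM in sgCtrl cells (log2 fold change -0.34, adjusted p = 0.00219). Hspa9 is described with the mitochondrial genes.

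The level of Hspa8 is uncertain because its transcript has near-identical copies. The table lists Gm15459, a processed pseudogene on chromosome 5 (chr5:5781615-5783555), whose sequence matches Hspa8 over 1941 bases at 99.7% identity. Gm15459 had 1124, 1086 and 1104 FPKM in sgUba6 libraries, against 867, 794 and 883 FPKM in sgCtrl libraries, which is more than Hspa8 itself in every library. Another 5 genes that share the sequence had a mean between 0.037 and 8.27 FPKM each over the 6 libraries. The highest of these, the lincRNA Gm26825 (chr5:5781530-5783636), lies over Gm15459 on the opposite strand. That locus therefore enters the sum below under both names. Hspa8 and these 6 genes summed to 1919, 1832 and 1896 FPKM in sgUba6 libraries, against 1438, 1402 and 1434 FPKM in sgCtrl libraries. The sum differed by 0.40 on the log2 scale in the same direction as Hspa8 alone, with no overlap (exact two-sided permutation p = 0.1, the smallest possible). FPKM is per length, so such a sum is an approximate level; how the reads were divided between the copies was not tested.

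**Figure D3:**
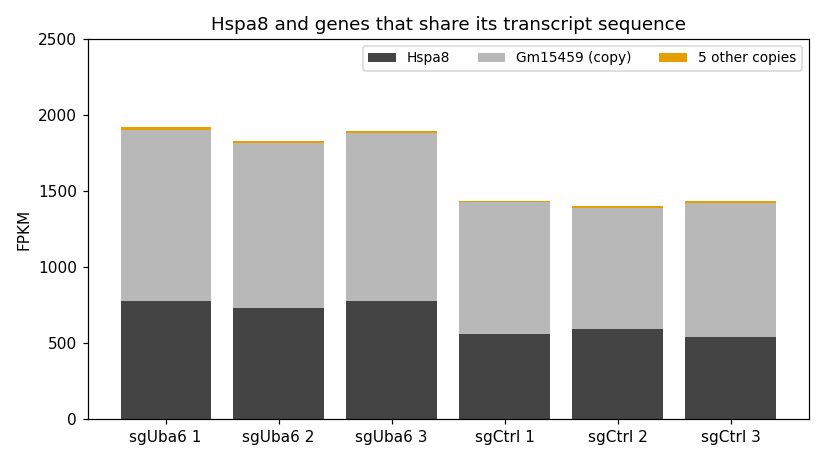
FPKM (y axis, linear, from 0) of Hspa8, of its copy Gm15459 and of 5 other genes that share its transcript sequence, stacked for each of the 3 sgUba6 and 3 sgCtrl libraries. The stacked totals are 1832 to 1919 in sgUba6 libraries and 1402 to 1438 in sgCtrl libraries.

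The HSP110 genes, whose products reload HSP70 with ATP, were lower or did not pass. Hspa4 had 125, 127 and 125 FPKM in sgUba6 libraries, against 138, 142 and 146 FPKM in sgCtrl libraries (log2 fold change -0.18 ± 0.03 SE, adjusted p = 0.00536). Its groups did not overlap, and the value was -0.11 under quantile normalization (adjusted p = 0.0394 by limma). Hspa4l averaged 10.2 FPKM in sgUba6 cells and 13.97 FPKM in sgCtrl cells (log2 fold change -0.43, adjusted p = 0.00406). Hsph1, the heat-inducible HSP105 with the 3-unit element printed above, had 42.7, 41.1 and 34.2 FPKM in sgUba6 libraries, against 38.9, 34.4 and 38.8 FPKM in sgCtrl libraries, with overlapping groups (log2 fold change 0.07 ± 0.09 SE, adjusted p = 0.582).

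Among the other partners of HSP70, from a list of 9 nucleotide exchange factors and adaptors, 3 (33.3%) were higher and 2 (22.2%) lower. That is near the shares over all genes tested, 24.7% and 22.7%. Bag3, the partner of Hspb8, averaged 29.8 FPKM in sgUba6 cells and 24.7 FPKM in sgCtrl cells (log2 fold change 0.27 ± 0.04 SE, adjusted p = 0.00155). Stub1, which encodes the ubiquitin ligase CHIP, differed by 0.17 (adjusted p = 0.0303) and Bag2, an inhibitor of CHIP, by -0.20 (adjusted p = 0.0246). By limma, Stub1 missed the threshold without sgUba6 replicate 1 or 3 or sgCtrl replicate 1 or 3 (adjusted p between 0.0781 and 0.0942), and Bag2 without sgUba6 replicate 2 or 3 or sgCtrl replicate 2 (between 0.0692 and 0.0738). The sgUba6 libraries of Hspbap1, whose product binds HSPB1, had 5.75, 5.51 and 4.97 FPKM, against 1.32, 1.45 and 3.31 FPKM in sgCtrl libraries. The groups did not overlap, but sgCtrl library 3 stood well above the other sgCtrl libraries (log2 fold change 1.31 ± 0.27 SE, adjusted p = 0.00711), and without it the value was 1.65 (limma adjusted p = 0.000189). Hspbp1, an exchange factor that acts on HSP70, averaged 23.0 FPKM in sgUba6 cells and 28.1 FPKM in sgCtrl cells, and its groups overlapped (log2 fold change -0.29 ± 0.11 SE, adjusted p = 0.0622). It passed without sgUba6 replicate 1 (adjusted p = 0.0232) or sgCtrl replicate 3 (adjusted p = 0.048), and with the replicate number as a block (adjusted p = 0.0116).

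The TRiC ring is built of 8 different subunits in equal numbers, but their transcripts did not differ together. Of the 7 Cct members, Cct6b, the testis form, was not tested, 3 were lower, 1 was higher and 2 did not pass. Among the 6 tested, 50% were lower and 16.7% higher, against 22.7% and 24.7% of all genes tested. Cct5 (chr15:31590800-31601804) had 246, 242 and 236 FPKM in sgUba6 libraries, against 424, 425 and 454 FPKM in sgCtrl libraries. This was the largest difference of the complex, a mean FPKM ratio of 0.556 with the groups far apart (log2 fold change -0.85 ± 0.04 SE, adjusted p = 1.53e-05). Cct3 (chr3:88297116-88321767) followed with 164, 172 and 155 FPKM in sgUba6 libraries, against 265, 253 and 255 FPKM in sgCtrl libraries (log2 fold change -0.65 ± 0.05 SE, adjusted p = 6.65e-05). Cct8 averaged 139 FPKM in sgUba6 cells and 159 FPKM in sgCtrl cells (log2 fold change -0.19, adjusted p = 0.00947).

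Cct2 was slightly higher, with 395, 392 and 395 FPKM in sgUba6 libraries, against 374, 375 and 364 FPKM in sgCtrl libraries (log2 fold change 0.09 ± 0.03 SE, adjusted p = 0.0412). The groups did not overlap, yet the call was lost by limma without any 1 of the 6 libraries (adjusted p between 0.0603 and 0.116) and under 4 other settings. The ratio of Cct5 to Cct2 was 0.597 to 0.624 in sgUba6 libraries, against 1.13 to 1.25 in sgCtrl libraries. It sets the Cct member with the largest fall against the only one called higher, so its gap follows from those results and adds no support. Cct4 (184 FPKM in sgUba6 cells and 161 FPKM in sgCtrl cells) and Cct7 (203 and 230 FPKM in the same order) had overlapping groups and did not pass. Cct7 was 147 FPKM in sgUba6 library 2 and 228 to 233 FPKM in the other sgUba6 libraries.

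The remaining subunits stand outside the member rule. Tcp1, the first subunit (CCT1), averaged 230 FPKM in sgUba6 cells and 237 FPKM in sgCtrl cells with overlapping groups (log2 fold change -0.04, adjusted p = 0.358). Cct6a is listed in the table as a processed transcript and not as protein coding. It averaged 355 FPKM in sgUba6 cells and 416 FPKM in sgCtrl cells (log2 fold change -0.23, adjusted p = 0.00232). None of the 8 TRiC partner genes of the list used, Tcp1, 6 prefoldin subunits that hand clients to the ring and the phosducin-like gene Pdcl3, passed the test in either direction by limma, with log2 fold changes between -0.23 and -0.04. At an unadjusted p under 0.05, 1 was lower.

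**Figure D4:**
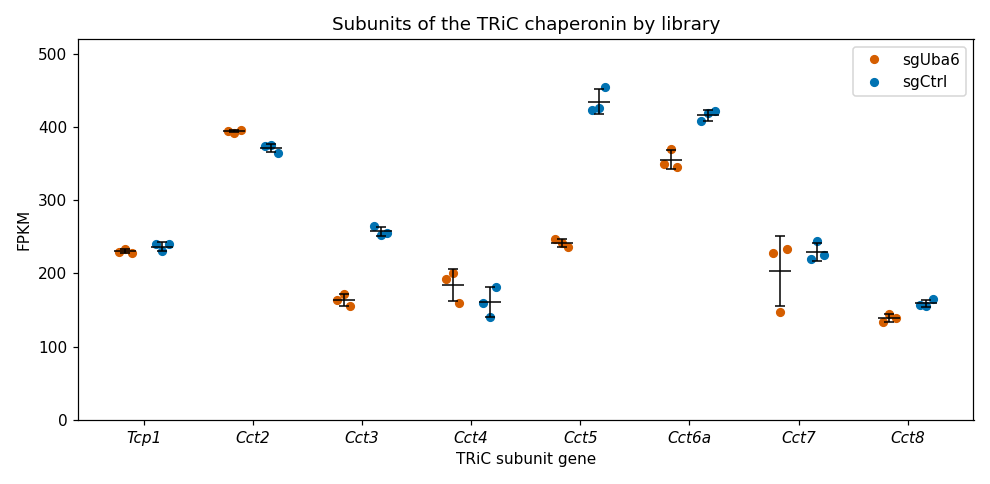
FPKM (y axis, linear, from 0) of the 8 TRiC subunit genes (x axis) in sgUba6 (left of each pair) and sgCtrl (right) libraries, 3 each; points are libraries, the horizontal line is the mean and the bars are ± SD. Cct5 and Cct3 are the subunits with the widest gap, Cct2 is slightly higher in sgUba6 cells, and Tcp1, Cct4 and Cct7 overlap.

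The mitochondrial chaperones were mostly lower in sgUba6 cells. Of 10 mitochondrial members, 6 (60%) were lower, 2 (20%) higher and 2 did not pass (median log2 fold change -0.36). These shares compare with 22.7% lower and 24.7% higher among all genes tested, and 40.7% and 27.1% among all members tested. Hspd1 (HSP60) had 328, 337 and 328 FPKM in sgUba6 libraries, against 475, 467 and 499 FPKM in sgCtrl libraries (log2 fold change -0.54 ± 0.04 SE, adjusted p = 5.32e-05). Hspe1 (HSP10), its lid, had 76.3, 73.2 and 71.4 FPKM in sgUba6 libraries, against 99.6, 110.4 and 97.6 FPKM in sgCtrl libraries (log2 fold change -0.47 ± 0.06 SE, adjusted p = 0.000583). The groups were apart for both genes of the shared promoter printed above, and their ratio, Hspd1 over Hspe1, was 4.30 to 4.60 in sgUba6 libraries and 4.24 to 5.11 in sgCtrl libraries, ranges that overlap. Hspd1 and Hspe1 share 112 exon bases on opposite strands, and reads from that part cannot be told apart without strand. Hspe1 shares 515 bases at 99.0% identity with AC117239.2, and the sum of both was 85.1 ± 3.07 FPKM in sgUba6 cells and 120.8 ± 10.1 FPKM in sgCtrl cells (SD, n = 3 each, exact two-sided permutation p = 0.1).

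Hspa9, the mitochondrial HSP70 mortalin, had 202, 197 and 193 FPKM in sgUba6 libraries, against 293, 295 and 309.8 FPKM in sgCtrl libraries (log2 fold change -0.60 ± 0.04 SE, adjusted p = 3.48e-05). No sgUba6 library came near the sgCtrl range. Dnajc19, whose product sits at the inner membrane by the import motor that Hspa9 powers, showed the largest fall of all members. It had 13.8, 13.8 and 13.4 FPKM in sgUba6 libraries, against 29.97, 31.6 and 32.4 FPKM in sgCtrl libraries, a mean FPKM ratio of 0.435 (log2 fold change -1.17 ± 0.05 SE, adjusted p = 8.94e-06). It shares 178 of 4027 exon bases with Fxr1 on the opposite strand, which was lower too (log2 fold change -0.59, adjusted p = 0.00229). Dnajc15, another J-protein of the import motor, averaged 1.83 FPKM in sgUba6 cells and 2.63 FPKM in sgCtrl cells (log2 fold change -0.43, adjusted p = 0.0437), and Dnajc11, of the inner membrane organising system, differed by -0.29 (adjusted p = 0.00685).

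The members that were higher were both J-protein genes. Dnajc28 had 1.47, 1.55 and 1.60 FPKM in sgUba6 libraries, against 0.698, 0.701 and 0.818 FPKM in sgCtrl libraries (log2 fold change 0.72 ± 0.09 SE, adjusted p = 0.000961), and Dnajc4 averaged 10.5 FPKM in sgUba6 cells and 8.77 FPKM in sgCtrl cells (log2 fold change 0.25, adjusted p = 0.0153). Dnaja3 (log2 fold change 0.09) and Dnajc30 (-0.14) did not pass. Of 9 mitochondrial partner genes, 4 (44.4%) were lower and 1 (11.1%) was higher, against 22.7% and 24.7% of all genes tested. Dnlz, which keeps mortalin soluble, differed by -0.34 (adjusted p = 0.00398), the protease Lonp1 by -0.32 (adjusted p = 0.00805) and Grpel1, the exchange factor of mortalin, by -0.32 (adjusted p = 0.00382), while Hscb, the J-protein of iron-sulfur cluster assembly, was 0.42 higher on the log2 scale (adjusted p = 0.0192). The call of Hscb was lost without sgUba6 replicate 2 (adjusted p = 0.0597), and that of Dnajc15 without sgUba6 replicate 1 or 3 or sgCtrl replicate 1 or 2 (adjusted p between 0.0926 and 0.125), by limma. Trap1, the mitochondrial HSP90, averaged 71.7 FPKM in sgUba6 cells and 70.3 FPKM in sgCtrl cells with overlapping groups (log2 fold change 0.03, adjusted p = 0.562).

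**Figure D5:**
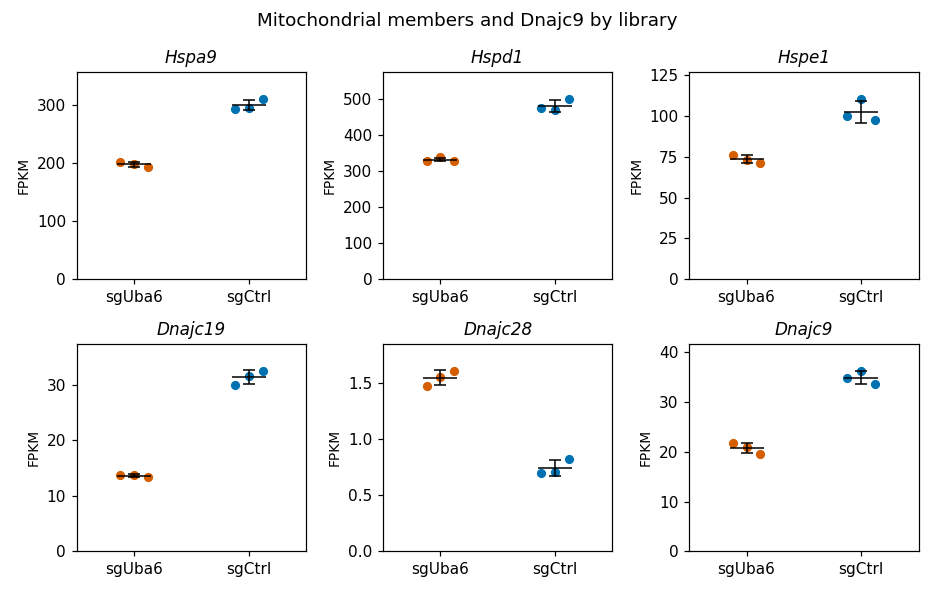
FPKM (y axis, linear, from 0) of 5 mitochondrial members and of the nuclear J-protein gene Dnajc9 in sgUba6 (left) and sgCtrl (right) libraries, 3 each; points are libraries, the horizontal line is the mean and the bars are ± SD. Hspa9, Hspd1, Hspe1, Dnajc19 and Dnajc9 are lower in sgUba6 cells and Dnajc28 is higher, with no overlap in any panel.

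J-proteins choose the clients of HSP70 and start its ATP hydrolysis. In the DNAJA class, built like bacterial DnaJ, 3 of 4 were higher and none was lower at the threshold or at an unadjusted p under 0.05. Over all genes tested, 24.7% were higher and 22.7% lower at the threshold. Dnaja4, a membrane-anchored form known from sterol metabolism (chr9:54698873-54716315), had 10.2, 10.5 and 9.85 FPKM in sgUba6 libraries, against 5.54, 5.85 and 5.39 FPKM in sgCtrl libraries (log2 fold change 0.81 ± 0.06 SE, adjusted p = 8.87e-05). It shares 1581 of 3589 exon bases with Wdr61 on the opposite strand, which went the other way (log2 fold change -0.33, adjusted p = 0.00604). Dnaja1, a main partner of Hspa8, had 66.5, 69.3 and 51.0 FPKM in sgUba6 libraries, against 39.7, 45.5 and 42.8 FPKM in sgCtrl libraries (log2 fold change 0.53 ± 0.12 SE, adjusted p = 0.00975). Of its 8629 exon bases, 608 are shared with Smu1 on the opposite strand, which did not pass (log2 fold change 0.06, limma adjusted p = 0.574). Dnaja2 averaged 102 FPKM in sgUba6 cells and 93.7 FPKM in sgCtrl cells, close to the threshold (log2 fold change 0.12 ± 0.04 SE, adjusted p = 0.0482), and the call was lost by limma without any single library other than sgCtrl replicate 3 (adjusted p between 0.0929 and 0.133).

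In the DNAJB class, 7 of 8 were tested, with 2 higher (28.6%) and 3 lower (42.9%), against 24.7% and 22.7% of all genes tested. Dnajb1, the HSP40 that HSF1 induces together with HSP70, had 20.2, 19.2 and 18.8 FPKM in sgUba6 libraries, against 16.1, 17.4 and 16.3 FPKM in sgCtrl libraries (log2 fold change 0.22 ± 0.05 SE, adjusted p = 0.0129). Dnajb5 had 1.14, 1.10 and 1.12 FPKM in sgUba6 libraries, against 0.475, 0.426 and 0.451 FPKM in sgCtrl libraries (log2 fold change 0.77). It too passed the filter through the sgUba6 libraries alone, so its place among the higher genes of the class is partly set by the filter. With no filter, limma gave an adjusted p of 0.000989. Dnajb2, which brings ubiquitinated clients to the proteasome and is best known from neurons, had 5.83, 9.21 and 5.96 FPKM in sgUba6 libraries, against 11.1, 12.7 and 9.16 FPKM in sgCtrl libraries. Its groups overlapped by 1 library (log2 fold change -0.63 ± 0.19 SE, adjusted p = 0.0308), and the call was lost without sgUba6 replicate 1 or 3 or without sgCtrl replicate 1 or 2 (adjusted p between 0.0772 and 0.0937, limma).

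Dnajb6, a suppressor of polyglutamine aggregation with the 3-unit element printed above, had 67.1, 64.2 and 65.7 FPKM in sgUba6 libraries, against 70.2, 68.6 and 72.7 FPKM in sgCtrl libraries. The groups did not overlap, but the difference did not pass (log2 fold change -0.10 ± 0.04 SE, adjusted p = 0.0667). Dnajb4 had 6.85, 14.9 and 7.36 FPKM in sgUba6 libraries and 13.6, 7.19 and 13.1 FPKM in sgCtrl libraries. Both groups held libraries near 7 and near 14 FPKM, so no difference was detectable (adjusted p = 0.591).

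The DNAJC class is the largest and most mixed, with J-domains in otherwise unrelated proteins. Of 25 genes, 23 were tested, of which 3 were higher, 10 lower and 10 not past the threshold (median log2 fold change -0.14). These are 13% higher and 43.5% lower, against 24.7% and 22.7% over all genes tested. Dnajc9, a histone chaperone that recruits HSP70 to histones H3 and H4, had 21.7, 20.9 and 19.6 FPKM in sgUba6 libraries, against 34.8, 36.1 and 33.6 FPKM in sgCtrl libraries (log2 fold change -0.74 ± 0.05 SE, adjusted p = 7.91e-05). Dnajc21, needed for the maturation of the large ribosomal subunit, had 23.8, 25.0 and 19.9 FPKM in sgUba6 libraries, against 36.9, 31.9 and 37.6 FPKM in sgCtrl libraries (log2 fold change -0.62 ± 0.10 SE, adjusted p = 0.00234). Dnajc2, the J-protein that works with Hspa14 on the ribosome, averaged 32.0 FPKM in sgUba6 cells and 40.5 FPKM in sgCtrl cells (log2 fold change -0.33, adjusted p = 0.00647), so both genes of that pair were lower.

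Of the 2 most abundant DNAJC transcripts, 1 was higher and 1 did not pass. Dnajc8, a splicing-associated protein, averaged 54.8 FPKM in sgUba6 cells and 44.2 FPKM in sgCtrl cells (log2 fold change 0.31 ± 0.10 SE, adjusted p = 0.037). Dnajc7, an adaptor of HSP70 and HSP90, averaged 50.2 FPKM in sgUba6 cells and 52.2 FPKM in sgCtrl cells with overlapping groups (adjusted p = 0.343). Dnajc22, Dnajc24, a cofactor of diphthamide synthesis, and Dnajc27 were lower, with log2 fold changes between -0.42 and -0.31. By limma, the call was lost for Dnajc8 without sgUba6 replicate 2 or 3 or sgCtrl replicate 1 or 3 (adjusted p between 0.0684 and 0.110), for Dnajc27 without sgUba6 replicate 1 or 3 or sgCtrl replicate 1 (between 0.0536 and 0.0568), and for Dnajc24 without sgCtrl replicate 3 (0.0692). Dnajc5, Dnajc13, Dnajc17 and Dnajc30 did not pass, though all sgUba6 libraries of Dnajc13 were above its sgCtrl libraries (log2 fold change 0.16, limma adjusted p = 0.053).

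The 8 members of the endoplasmic reticulum or its membrane held 3 that were lower and none that was higher by limma (0 higher with an unadjusted p under 0.05 as well). The 37.5% lower compares with 40.7% of all members tested and 22.7% of all genes tested. Dnajb14 had 4.07, 4.03 and 3.98 FPKM in sgUba6 libraries, against 6.14, 6.08 and 5.85 FPKM in sgCtrl libraries (log2 fold change -0.53 ± 0.06 SE, adjusted p = 0.000535). Its close relative Dnajb12 averaged 20.4 FPKM in sgUba6 cells and 23.1 FPKM in sgCtrl cells (log2 fold change -0.17, adjusted p = 0.034), and the disulfide reductase Dnajc10 differed by -0.20 (adjusted p = 0.0165). Dnajb12 missed the threshold without any single library other than sgCtrl replicate 3 (adjusted p between 0.0557 and 0.102) and Dnajc10 without sgUba6 replicate 1 (adjusted p = 0.0546), by limma. Dnajc1, Dnajc14, Dnajc16, Dnajc18 and Dnajc25 did not pass. For Dnajc16 and Dnajc18 every sgUba6 library was above every sgCtrl library (log2 fold changes 0.19 and 0.16, limma adjusted p = 0.0982 and 0.194).

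The 7 members not tested were low in all libraries and fell short of the filter. They were Dnajb13, Dnajc6 (auxilin), Dnajc12, Hspa1l, Hspa12a, Hspa1a and Cct6b, and the highest single value was 0.618 FPKM, for Hspa12a in sgCtrl library 3.

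The regulators and targets of the HSF1 pathway were also uneven. Hsf1 averaged 13.9 FPKM in sgUba6 cells and 20.1 FPKM in sgCtrl cells with no overlap (log2 fold change -0.52 ± 0.11 SE, adjusted p = 0.00706). Hsf2, its relative, averaged 14.8 FPKM in sgUba6 cells and 12.5 FPKM in sgCtrl cells (log2 fold change 0.23, adjusted p = 0.0255), a call lost by limma without sgUba6 replicate 2 or 3 or sgCtrl replicate 1 or 2 (adjusted p between 0.0625 and 0.0765). From a list of 21 known HSF1 target genes, which includes members, 8 were higher, 8 were lower and 4 did not pass. Hspa1a was untested, and the median log2 fold change was 0.07. Among the 20 tested, 40% were higher and 40% lower, against 24.7% and 22.7% of all genes tested. Hspb1, Hspb8, Hspa8 and Dnaja1 were among the higher, and Hspa1b, Hspd1, Hspe1 and Hspa4l among the lower. RNA levels do not show whether HSF1 protein was active.

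The cochaperones of HSP90 were mostly lower, in contrast to Hsp90ab1. Of 13 genes, 8 (61.5%) were lower, 2 (15.4%) higher and 3 did not pass (median log2 fold change -0.23). The shares over all genes tested were 22.7% lower and 24.7% higher. Ppid, which encodes cyclophilin 40, averaged 49.95 FPKM in sgUba6 cells and 86.1 FPKM in sgCtrl cells (log2 fold change -0.78 ± 0.05 SE, adjusted p = 3.1e-05). Cacybp differed by -0.37 (adjusted p = 0.000284) and the phosphatase Ppp5c by -0.37 (adjusted p = 0.00399). The higher genes were Cdc37, which loads kinases on HSP90 (log2 fold change 0.17, adjusted p = 0.00585), and Fkbp5 (log2 fold change 0.26, adjusted p = 0.00334). Of the 6 endoplasmic reticulum genes left out of the set, Dnajb9 was higher and Hsp90b1, Dnajb11 and Dnajc3 were lower by limma, though each of these calls except that of Dnajc3 was lost without some single libraries (adjusted p up to 0.110). Among the 6, 16.7% were higher and 50% lower, against 24.7% and 22.7% of all genes tested. Hspa5 averaged 213 FPKM in sgUba6 cells and 309.8 FPKM in sgCtrl cells with overlapping groups (log2 fold change -0.53 ± 0.21 SE, adjusted p = 0.0806).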

How the data were processed

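The RNA of 3 sgUba6 and 3 sgCtrl libraries of 4T1 cells was measured by RNA-seq. The deposited table gives FPKM per gene and library, which the authors made from reads aligned to GRCm38 (mm10) with HISAT2; the sources name different trimming tools, counting tools and library kits (a TruSeq and a directional NEB kit), so strand handling and the division of reads between copies are uncertain. The authors' fold changes, p-values and q-values in the table hold their own comparison and were not used. No read counts or depths were used here. Groups were taken from the sample labels.

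FPKM was transformed to log2(FPKM + 0.5) from the deposited values. Genes with 0.5 FPKM or more in at least 3 libraries were fitted with limma 3.58.1 in R 4.3.3 (moderated test with a mean-variance trend), with Benjamini-Hochberg adjustment over all 12190 genes and a threshold of 0.05. The fit was tested on simulated data. Summed FPKM of near-identical copies (500 bases or more shared at 95% identity or above, no overlap in the genome with the member) were compared by an exact two-sided permutation test, which cannot go below p = 0.1 with 3 against 3. Coordinates are those of the table, identical to GENCODE M21 for all 66 members.

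Members, lists and tests were chosen with earlier results of these data known. Members were named when called with a log2 difference of at least 0.5 and 1 FPKM or more in the higher group, with the 2 most abundant of each family and all of families of under 3; other members are given to account for each. From each partner list up to 3 called genes with the largest differences were named, and Cct6a, Tcp1, Trap1, Cryab, Cdc37, Fkbp5, copies and overlapping neighbours were added after their values were seen. Alternatives were constants of 0.1 and 1, no filter and a filter of 1 FPKM, scaling by the median of ratios or by quantiles, no trend, the replicate number as a block, and leaving out each library.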

Additional observations from a re-analysis of the deposited data

How the results depend on the processing

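Under the 14 alternatives, the members called stayed within 1.5 times the 16 higher and 24 lower of the main setting (11 to 16 higher and 20 to 24 lower; when a library was left out, 11 to 14 and 20 to 24), and the median log2 fold change of the members tested stayed between -0.12 and -0.08. Of 74 gene results, 1030 values were refitted, of which 922 kept direction and side of the threshold, 103 lost and 4 gained the call, and 1 reversed: Hsp90aa1, never called, ran between -0.0094 without sgCtrl replicate 2 (adjusted p = 0.956, limma) and 0.1628 without sgUba6 replicate 1. Hsp90ab1 lost its call under quantile normalization (0.07), as did Stip1 (-0.09, adjusted p = 0.0695). Hspb1 gave no value without any sgUba6 library, because only 2 libraries then reached the filter, as with Dnajb5. The median log2 fold change of all genes was 0.0097 in the main setting, -0.0016 under median-of-ratios scaling and -0.0204 under quantile normalization. With 2 units in place of 3 the heat shock element was found in 16 members, not 4. The deviations of same-numbered libraries correlated at 0.02, -0.06 and -0.02, so no pairing by number showed in the values. These correlations cannot tell whether same-numbered libraries were prepared together. With the replicate block, 14 members were higher and 24 lower. FPKM without depth gives no counting error for low genes such as Hspb1 and Hspa2. No group is large enough to test a single library as an outlier.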
